A study of Mus musculus with 18 samples.

Results

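Resting conventional CD4 T cells of the mouse spleen are described here, with their marker genes and the way their transcripts shifted when Foxp3 was missing. They are the cells that the authors annotated as resting conventional T cells (Tconv), without the cluster named after the interferon gene Irf7. These are 17679 of the 26652 cells of the series (66.3%), 16692 from the first resting cluster and 987 from a cluster named for high T cell receptor signalling (TCRhi). Splenic DAPI- TCRβ+ CD4+ cells of male mice were sorted and measured as single cells by 3' sequencing on droplets, in one experiment with the V2 kit and another with the V3 kit, per the labels. The deposited cell metadata names the V3 kit for all cells. In V2, wild-type (WT) mice of strain B6 Foxp3-IRES-GFP and ∆Foxp3 mice of strain B6 Foxp3DeltaEGFPiCre x ROSA-YFP were both 3 weeks old, with 2 samples each. In V3, ∆Foxp3 mice of the same strain were 3 weeks old, while WT mice (B6 Foxp3-IRES-GFP x CD45.1) were 9 weeks old, so genotype and age cannot be told apart there. V3 also held GFP- Tconv and GFP+ Treg cells sorted from 9-week-old WT mice, with 2 samples for each group. Mixed bone marrow chimeras gave 3 samples of WT cells and 3 of ∆Foxp3 cells: CD45.2 recipients aged 7 weeks received 1000 rad and CD3-depleted marrow cells, 50% from each genotype (the ∆Foxp3 donor crossed also to CD45.1/2) and both from 21-day-old males, and were sampled 10 weeks later, at an age the sample labels give as 16 weeks. All WT cells thus carried the GFP reporter at Foxp3, and all ∆Foxp3 cells carried GFP and Cre at Foxp3 and the ROSA-YFP allele. The 2 samples of each intact V3 group share a hashtag in 2 droplet channels and may come from 1 mouse, and the V2 labels name no separate animals, so p-values may measure technical spread.

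A resting, or naive, CD4 T cell has left the thymus and has not yet met its antigen. It recirculates between blood and lymphoid organs with the chemokine receptor Ccr7 and the egress receptor S1pr1, is held in quiescence by factors such as Klf2, Foxo1 and Tob1, and keeps its identity with the transcription factors Tcf7 and Lef1. Foxp3 is the defining transcription factor of regulatory T cells (Treg), which restrain conventional T cells, and mice that lack it develop a lethal lymphoproliferative disease. Interferon gamma, a main product of Th1 cells, acts at GAS elements and through the induced factor Irf1, whereas type I interferon acts mainly at ISRE elements. Guanylate-binding proteins (Gbp genes) and immunity-related GTPases (Irgm1, Igtp, Iigp1) are classical interferon gamma targets.

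Interferon-induced genes were prominent among the shifts described below, so the 250 bases upstream of the transcript start are shown for 4 of them and for the naive marker Dapl1, from RefSeq on GRCm38.p6, 5' to 3' on the gene's strand. Capitals mark matches to an ISRE-like pattern, GAAA and GAAA with any 2 bases between them, or a GAS-like pattern, TTC and GAA with any 3 bases between them, searched on both strands. Igtp encodes an immunity-related GTPase (chr11:58199306-58199555, + strand), Gbp7 a guanylate-binding protein (chr3:142530086-142530335, + strand), Irf1 the interferon regulatory factor (chr11:53769764-53770013, + strand, the first of its starts), Isg15 a ubiquitin-like type I interferon product (chr4:156200819-156201068, - strand), and Dapl1 lies at chr2:59484403-59484652 (+ strand).
Igtp: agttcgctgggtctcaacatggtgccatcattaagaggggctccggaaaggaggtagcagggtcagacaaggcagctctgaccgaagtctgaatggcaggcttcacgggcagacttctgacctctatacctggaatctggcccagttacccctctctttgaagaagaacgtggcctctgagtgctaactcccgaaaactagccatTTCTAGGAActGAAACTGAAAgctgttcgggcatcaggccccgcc
Gbp7: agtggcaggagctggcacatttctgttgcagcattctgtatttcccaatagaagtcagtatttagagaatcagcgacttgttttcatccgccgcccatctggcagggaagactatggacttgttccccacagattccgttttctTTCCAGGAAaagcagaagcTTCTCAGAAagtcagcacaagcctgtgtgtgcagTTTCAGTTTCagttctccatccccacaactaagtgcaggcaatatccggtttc
Irf1: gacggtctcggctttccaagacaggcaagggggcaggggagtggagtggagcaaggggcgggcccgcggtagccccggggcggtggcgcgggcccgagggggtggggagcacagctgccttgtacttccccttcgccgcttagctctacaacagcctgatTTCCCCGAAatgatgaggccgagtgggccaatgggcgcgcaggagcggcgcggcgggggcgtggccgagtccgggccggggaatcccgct
Isg15: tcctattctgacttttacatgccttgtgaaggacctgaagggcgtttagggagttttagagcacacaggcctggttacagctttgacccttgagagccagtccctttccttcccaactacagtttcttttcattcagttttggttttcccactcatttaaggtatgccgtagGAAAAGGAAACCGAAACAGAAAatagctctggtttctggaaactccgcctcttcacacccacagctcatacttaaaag
Dapl1: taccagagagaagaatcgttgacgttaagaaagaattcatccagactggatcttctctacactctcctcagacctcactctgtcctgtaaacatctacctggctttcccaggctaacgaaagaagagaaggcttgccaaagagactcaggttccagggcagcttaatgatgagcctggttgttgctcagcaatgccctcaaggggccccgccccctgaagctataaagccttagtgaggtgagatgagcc

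In Igtp a GAS match 45 to 37 bases before the start stands beside an ISRE match at 34 to 25. Gbp7 holds 2 GAS matches and an ISRE match, Irf1 a GAS match, Isg15 overlapping ISRE matches, and Dapl1 no match in this window. Over windows from 250 bases before to 50 after the start, ISRE matches lay in 3.99% of 27025 genes and GAS matches in 9.55%. ISRE matches lay in 11 of the 16 interferon gamma-induced genes with a window (68.8%) and in 21 of 31 type I interferon response genes (67.7%). GAS matches lay in 9 of the 16 (56.3%) and in 5 of the 31 (16.1%). Of 21 naive T cell genes, 1 had an ISRE match and 4 a GAS match. A match is a description of letters, and binding was not measured.

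Resting cells numbered 2924 and 4076 in V2 WT, 666 and 2030 in V2 ∆Foxp3, 226 and 588 in V3 WT, 385 and 411 in V3 ∆Foxp3, 95 and 274 in sorted Tconv, 461 to 1233 in chimera WT and 584 to 1627 in chimera ∆Foxp3 samples. The sorted Treg samples held 0. Unique molecules (UMIs) summed over resting cells ranged from 631628 to 11385800 a sample, and the median per cell from 2742.5 to 3102.5 in V2 and from 5043 to 8212 in V3. Of the barcodes, 47 were shared by V2 libraries and 4 by V3 channels. Summed markers of gamma delta T cells were at 0 to 1.72 CPM and those of NKT cells at 0.688 to 17.8 CPM. The NKT sum differed within groups, at 0.955 and 17.8 CPM in the 2 V3 WT samples, and was 16.3 CPM in the second chimera ∆Foxp3 sample.

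Transcripts of the targeted gene were nearly absent from the resting cells, which gives little check of the labels: 0 to 9 separate Foxp3 UMIs a sample. Cre UMIs, 0 to 10 a sample, occurred only in ∆Foxp3 samples. UMIs of the GFP sequence were found in 1.15% and 1.44% of V2 WT cells, in 0.510% and 1.77% of V3 WT cells and in 0.966% to 4.34% of chimera cells. In V2 ∆Foxp3 they were found in 7.24% and 9.16%, and in V3 ∆Foxp3 in 37.0% and 32.7% of the cells annotated as resting. Both genotypes carry GFP at Foxp3, and whether reads of the ROSA-YFP reporter were also counted as GFP was not tested.

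The label was therefore tested against 8 genes of activated Tconv cells (Cd44, S100a4, S100a6, Itgb1, Cxcr3, Ccl5, Icos, Tnfrsf4). After each cell was thinned to 1500 UMIs, 3 or more UMIs of these genes were found in 0.294% and 0.684% of V2 WT cells and in 8.77% and 14.9% of V2 ∆Foxp3 cells. In V3 the shares were 0.680% and 2.21% in WT, and 72.8% and 79.5% in ∆Foxp3. In cells annotated as activated they were 71.7% and 81.4% in V3 WT and 98.2% and 97.4% in V3 ∆Foxp3. Chimera resting cells were at 0.492% to 2.60% in both genotypes. The V3 ∆Foxp3 cells are called resting-annotated below, because the activation markers in most of them go against the name.

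**Figure D1:**
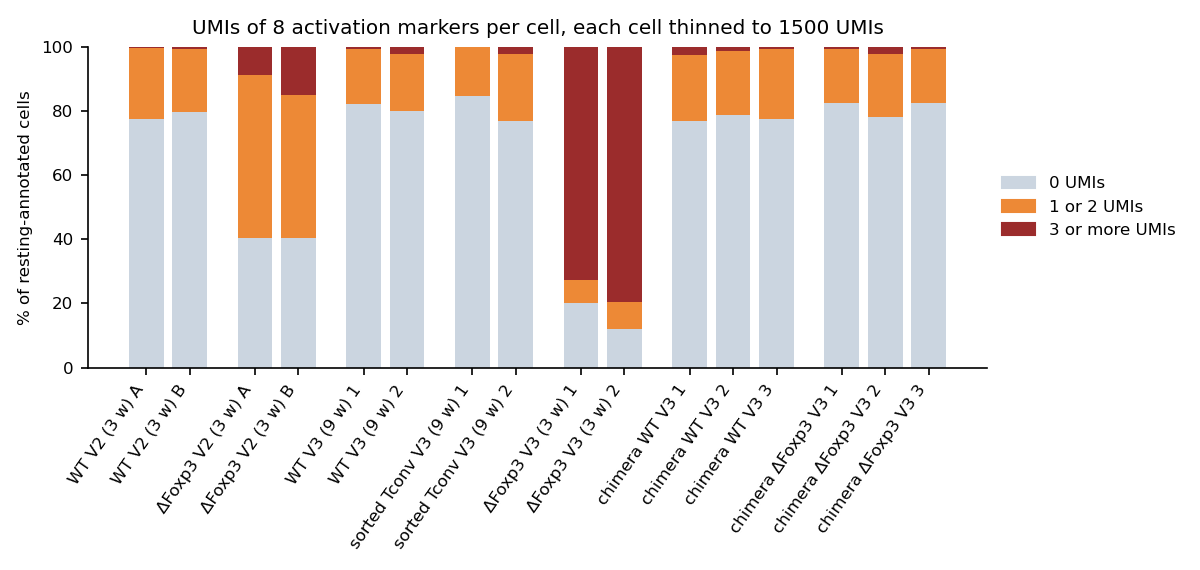
Share of resting-annotated cells (%, vertical axis) with 0, with 1 or 2, and with 3 or more UMIs of 8 activation markers, by sample, each cell thinned to 1500 UMIs. In both V3 ∆Foxp3 samples the class with 3 or more UMIs takes 72.8% and 79.5% of the cells, and it takes at most 14.9% in any other sample.

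Within V3 ∆Foxp3 the naive markers followed this division. Cells with 0 activation-marker UMIs (83 and 46 cells) held a mean of 2.43 and 2.48 UMIs of the 4 markers Ccr7, Lef1, Tcf7 and Dapl1, near the 2.80 and 2.65 of such cells in V3 WT. Cells with 3 or more (299 and 306 cells) held 0.622 and 0.533. All V3 ∆Foxp3 comparisons are therefore also given over cells with at most 2 unthinned UMIs of the 8 genes, an alternative chosen after the data were seen that itself removes cells high in activation genes. It keeps 84 and 50 V3 ∆Foxp3 cells (20.4% and 13.0%), 565 and 196 V3 WT cells (96.1% and 86.7%), 1433 and 450 V2 ∆Foxp3 cells (70.6% and 67.6%) and 4011 and 2865 V2 WT cells (98.4% and 98.0%). In V3 ∆Foxp3, 10 and 5 cells had 3 or 4 such UMIs, just outside the limit. The cells kept there had a median of 4462 and 5590 UMIs, against 7320 and 9253 in the cells left out, and GFP UMIs in 17.9% and 24% of them.

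In intact WT mice the resting cells stood apart from Treg and activated cells through the 4 markers and a set of partner genes. This is a description, since the clusters were built from the same genes. Levels are given as CPM, the usual scaling of UMI counts to the sum over the cells of a class, and are compared within a gene only. Ccr7 was at 458 and 489 CPM in V2 WT resting cells, against 103 and 164 in activated and 192 and 220 in Treg cells. Dapl1 was at 470 and 506 CPM, against 53.2 and 105 in activated and 39.1 and 61.2 in Treg cells. Lef1 was at 626 and 559 CPM and Tcf7 at 434 and 442, the latter against 245 and 267 in activated cells, so that Tcf7 separated the classes least.

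By the ratio to the nearest other class, the 15 leading genes were Igfbp4, Dapl1, Pdlim4, Gm12840, Tdrp, Actn1, Ccr7, Lef1, Pdk1, Klhdc1, Satb1, Pik3ip1, Klhdc2, Vps37b and Pdlim1. Igfbp4, an insulin-like growth factor binding protein, was 4.75 times its level in the nearest class in V2 WT and 4.80 times in V3 WT. Satb1, the chromatin organizer of T cells, was 1.91 and 2.60 times as high, and Pdk1, a pyruvate dehydrogenase kinase, 1.98 and 2.46 times. In the chimera samples 9 of the 15 were again among the first 15. Activated-cell genes were low but not at 0: S100a6 was at 13.0 and 14.7 CPM in V2 WT resting cells, against 522 and 586 in activated cells. The TCRhi cells shared the naive genes (Ccr7 276 and 297 CPM in V2 WT) and stood out by Nr4a1, an immediate T cell receptor target, at 225 and 252 CPM against 9.72 and 5 in the other resting cells.

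**Figure D2:**
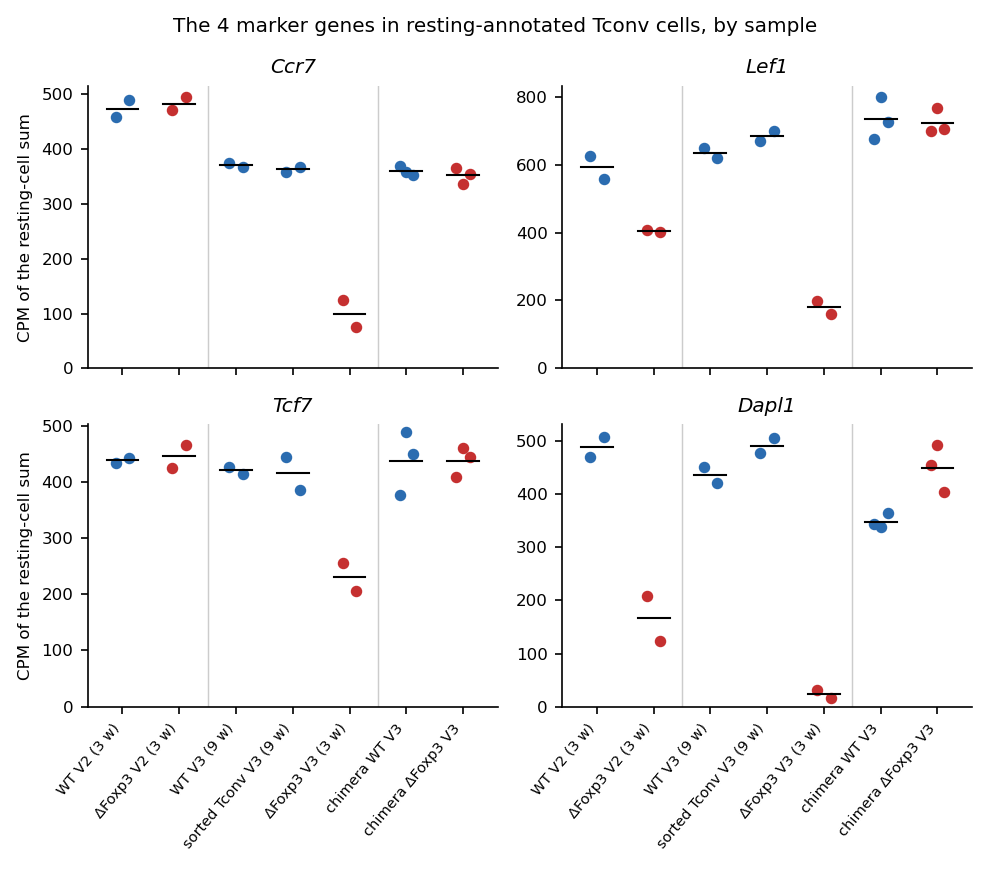
CPM of Ccr7, Lef1, Tcf7 and Dapl1 in the resting-cell sum of each sample (vertical axes); points are samples, bars are group means, and WT is blue and ∆Foxp3 red. In V3 ∆Foxp3 all 4 genes lie below every other sample, whereas in V2 ∆Foxp3 the samples lie below WT for Lef1 and Dapl1.

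In 3-week-old mice of the V2 experiment interferon-induced transcripts rose in resting cells without Foxp3, whereas Ccr7 and Tcf7 did not pass the test. Of 9907 genes tested with edgeR, 1155 rose and 728 fell, 19% in all (11.7% and 7.35%). Ccr7 was at 472 and 494 CPM in ∆Foxp3, overlapping with WT, a log2 fold change of 0.02 ± 0.08 (SE; edgeR adjusted p = 0.899). Tcf7 was at 424 and 466 CPM (0.01 ± 0.08). Lef1 fell to 406 and 401 CPM (-0.56 ± 0.08, edgeR adjusted p = 0.0014), and Dapl1 fell to 209 and 124 CPM (-1.52 ± 0.19, edgeR adjusted p = 0.00083), both below either WT sample. Of 27 naive genes tested, 6 rose and 9 fell, with a median log2 fold change of -0.16, where that of all genes was -0.01.

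The 9 naive genes that fell in V2 included Actn1, an actin cross-linker (-1.31 ± 0.09), the sialyltransferase St8sia6 (-1.17 ± 0.12) and Cd55, a complement-decay regulator. The 6 that rose included Ms4a4c, which is also interferon-responsive, from 48.1 and 54.7 to 214 and 156 CPM, and the PI3-kinase inhibitor Pik3ip1 (0.34 ± 0.08). Quiescence factors were split, with 3 of 19 higher and 4 lower. Tob1, a brake on proliferation, fell by 1.03 ± 0.14 on the log2 scale and Foxo1 by 0.60 ± 0.10, whereas Tsc22d3, the glucocorticoid-induced leucine zipper, rose by 0.97 ± 0.11.

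Every one of the 21 interferon gamma-induced GTPases and factors tested in V2 rose, with a median of 2.41, against the background of 11.7%. Gbp2 (chr3:142620663-142638008) was at 36.6 and 34.3 CPM in WT and at 463 and 533 CPM in ∆Foxp3, a change of 3.8 ± 0.10 (edgeR adjusted p = 2.5e-07). Igtp rose from 75.5 and 72.6 to 506 and 535 CPM (2.81 ± 0.08), and Iigp1 from 10.7 and 10.4 to 293 and 289 CPM (4.77 ± 0.09). The groups did not overlap for any of these 3 genes. Gm4951, an annotated interferon-inducible GTPase, had 0 UMIs in both WT samples and 528 in ∆Foxp3, which is at least 419-fold higher when the WT group is set to the floor of 3 UMIs. Irf1 rose by 1.62 ± 0.08 and Gbp7 by 1.95 ± 0.09, the 2 GAS-bearing promoters shown above beside that of Igtp. The 250 bases before Gbp2, not shown, held 1 ISRE match and 0 GAS matches, and those before another Irf1 start held 0 of both.

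The change was also seen as a share of cells. Thinned to 1500 UMIs, 41.9% and 43.1% of V2 ∆Foxp3 resting cells had a Gbp2 UMI, against 5.59% and 5.13% in WT. In activated cells of the same ∆Foxp3 samples the share was 20.1% and 13.3%, and in Treg-annotated cells 25.9% and 17.7%. Unthinned, the resting means were 57.3% in ∆Foxp3 and 9.35% in WT. The difference between the thinned group means had an exact two-sided permutation p of 0.33, the smallest that 2 against 2 samples allow.

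Type I interferon response genes also rose in V2, 30 of 41 with 2 lower, at a median of 1.04. Ifit3 was at 8.78 and 9.95 CPM in WT and at 50.6 and 44.0 CPM in ∆Foxp3 (2.37 ± 0.13). The nucleic acid sensor Zbp1 rose from 76.4 and 73.2 CPM to 323 in both samples (2.10 ± 0.08), and Isg15 rose by 1.73 ± 0.16. The cells with the highest type I interferon response, the cluster named for Irf7, are left out in every group. They made up 7.47% and 9.08% of the resting annotation in V2 WT and 14.9% and 14.4% in V2 ∆Foxp3, so this removes a larger share from ∆Foxp3. With them kept in, 31 of 44 genes rose and 2 fell.

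Antigen presentation by MHC class I followed, with 19 of 22 genes higher, 0 lower and a median of 0.91. Tap1, which pumps peptides into the endoplasmic reticulum, rose from 97.8 and 94.5 to 258 and 258 CPM (1.42 ± 0.08), and the immunoproteasome subunit Psmb8 from 646 and 632 to 1400 and 1280 CPM (1.06 ± 0.07). Class II genes outside the list rose as well, H2-DMa from 21.4 and 19.7 to 472 and 267 CPM and Cd74 from 9.84 and 8.76 to 112 and 96.6 CPM. Cd74 and the class II gene H2-Aa (1.76 and 0.829 to 6.74 and 8.18 CPM) are also B cell markers. Of 4 B cell markers tested 2 rose and 1 fell, the fall being Ighm, from 181 and 211 to 137 and 144 CPM. The B cell list summed to 200 and 224 CPM in WT and 260 and 252 CPM in ∆Foxp3. Its part in the class II result is not separated here.

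Transcripts of cytokine pathways moved too. Of 17 IL-2 and STAT5 targets 13 rose and 0 fell, at a median of 1.12. Socs1, a feedback inhibitor of JAK kinases, rose from 23.8 and 27.7 to 149 and 169 CPM (2.61 ± 0.11), and Socs3 from 43.0 and 37.9 to 167 and 212 CPM (2.2 ± 0.12). The survival factor Bcl2 rose from 77.0 and 80.8 to 179 and 252 CPM (1.42 ± 0.14), among 9 of 12 BCL-2 family genes that rose. Of 23 immediate early genes 13 rose and 1 fell, Jun from 3.34 and 4.5 to 46.4 and 47.5 CPM (3.59 ± 0.16). The TCRhi cells, which stood out by Nr4a1, are part of these sums. They made up 4.88% and 5.03% of resting cells in V2 WT and 6.45% and 6.91% in V2 ∆Foxp3. In V3 they made up 5.44% and 5.31% in WT and 9.98% and 9.87% in ∆Foxp3. The sums given here do not separate their part in the rise. A fit that left the TCRhi cells out was also run, and its values for these genes are not given here. Cytokine receptors were mixed, 5 of 18 higher and 1 lower: Ifngr1, a chain of the interferon gamma receptor, rose by 0.94 ± 0.12, and Il6st, the signal chain of the IL-6 receptor, fell by 0.68 ± 0.10.

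Part of the antigen receptor machinery went down. Of 24 genes of the T cell receptor complex and its proximal signalling 0 rose and 11 fell in V2, at a median of -0.15. The costimulatory receptor Cd28 fell from 376 and 354 to 210 and 194 CPM (-0.86 ± 0.08), and Themis, a receptor-proximal adaptor, from 60.2 and 53.8 to 28.1 and 25.1 CPM (-1.08 ± 0.11). Cd40lg, the ligand through which T cells help B cells, fell from 63.9 and 64.4 to 21.3 and 30.7 CPM. Chaperones fell too, 7 of 14 with 0 higher, for example Hsph1 from 45.0 and 37.0 to 13.5 and 10.2 CPM. Of 12 mitochondrially encoded genes 7 fell and 0 rose (median -0.27), and the median mitochondrial share of UMIs was 2.77% and 2.65% in WT and 2.31% and 2.25% in ∆Foxp3.

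Effector and activation genes rose in V2, with unequal ∆Foxp3 samples. Of 30 genes of activation and memory 21 rose and 2 fell (median 1.52), and of 15 Th1 genes 12 rose and 0 fell (median 3.01). Ifng was at 0.790 and 0.592 CPM in WT and at 14.6 and 78.7 CPM in ∆Foxp3, and the chemokine Ccl4 at 4.30 and 3.55 against 24.3 and 421 CPM. The second ∆Foxp3 sample, with 666 resting cells, was the higher one for these genes, also for the cytotoxic granule gene Nkg7 (83.4 and 241 CPM). Other-cell markers moved with these samples. The CD8 T and NK cell list summed to 27.4 and 25.5 CPM in WT and 35.3 and 46.02 CPM in ∆Foxp3. The NKT list summed to 2.99 and 3.32 against 3.45 and 9.20 CPM. The part of such cells in the result is not separated here. Lgals3, a galectin of activated T cells, rose from 1.76 and 1.66 to 42.0 and 36.8 CPM. Over cells with at most 2 activation-marker UMIs, 1031 genes rose (10.7%) and 644 fell (6.69%). Of 28 activated genes, a list that holds the 8 markers behind the limit, 16 still rose, and the interferon gamma-induced list stayed at 21 of 21.

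Ctse and Cd55 led the falls in V2. Ctse, an aspartic protease of the endosome (chr1:131638314-131675507), was at 164 and 171 CPM in WT and at 11.6 and 18.9 CPM in ∆Foxp3 (-3.61 ± 0.16, edgeR adjusted p = 3.4e-06). Cd55 (chr1:130429798-130465009) fell from 63.9 and 53.8 to 7.05 and 6.65 CPM (-3.09 ± 0.15). Neither pair of groups overlapped. The count of genes called in V2 dropped to 910 under DESeq2 and to 794 and 861 without the first or the second WT sample. Erythroid markers were at 600.3 CPM in the second ∆Foxp3 sample against 113 to 175 CPM in the other V2 samples, and their part is not separated here. The share of reads in cells moved with the groups, 0.791 and 0.795 in WT and 0.597 and 0.534 in ∆Foxp3, and its part was not tested. In such sums, fewer cells with a transcript and less of it per cell cannot be told apart.

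In the V3 experiment the resting-annotated cells of ∆Foxp3 mice had lower naive genes and higher effector genes. Of 10007 genes 2179 rose and 1880 fell against 9-week-old WT, 40.6% in all (21.8% and 18.8%). Without the first WT sample 2520 genes passed. All 4 markers fell. Ccr7 was at 375 and 367 CPM in WT and 124 and 74.8 CPM in ∆Foxp3 (-2.21 ± 0.12, edgeR adjusted p = 1.1e-13). Lef1 fell from 648 and 620 to 198 and 161 CPM (-2.11 ± 0.09), Tcf7 from 427 and 414 to 256 and 206 CPM (-1.15 ± 0.11), and Dapl1 from 451 and 420 to 32.3 and 16.8 CPM (-4.48 ± 0.15). Of 27 naive genes 0 rose and 24 fell, at a median of -1.92, where that of all genes was -0.0039. S1pr1 and Klf2 were among those that fell.

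In V3, 29 of 30 activated genes rose, with a median of 4.57, and the exception, Ly6c1, fell from 226 and 180 to 54.95 and 38.4 CPM. S100a4, a calcium-binding protein of memory T cells, was at 22.9 and 50.1 CPM in WT and at 2606 and 2660 CPM in ∆Foxp3 (6.05 ± 0.17). The chemokine Ccl5 rose from 16.2 and 23.5 to 2119 and 2046 CPM, and granzyme B (Gzmb) from 0.637 and 2.54 to 158 and 261 CPM. Of 15 Th1 genes 13 rose and 1 fell. Proliferation genes rose in 23 of 25 cases, Birc5 from 1.91 and 3.17 to 65.9 and 144 CPM, and 12 of 15 glycolytic genes rose, Gapdh from 459 and 615 to 1679 and 2169 CPM. Serpina3f, a serine protease inhibitor of activated lymphocytes, had 0 UMIs in WT and 288 in ∆Foxp3, at least 68.0-fold higher. The chemokine Ccl1 had 1 UMI in WT and 839 in ∆Foxp3, a ratio of 593.8 with a 95% counting interval of 106 to 23480.

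Interferon genes behaved unevenly in these V3 sums. Of the 21 interferon gamma-induced genes 10 rose and 1, Irf9, fell (median 0.57), and Gbp2 was at 26.1 and 33.6 CPM in WT and 53.2 and 50.6 CPM in ∆Foxp3 (0.57 ± 0.16). Of 41 type I response genes 24 fell and 4 rose, at a median of -0.95, Ifit3 from 10.5 and 10.2 to 5.50 and 3.46 CPM. Ly6a, a surface protein also known as Sca-1, rose from 333 and 301 to 1250 and 1360 CPM. All 35 ribosomal protein genes fell (median -0.70), and 11 of 12 mitochondrially encoded genes fell, beside a mitochondrial share of 7.22% and 7.25% in WT and 5.17% and 5.21% in ∆Foxp3. Myeloid markers moved with the group: their sum was 186 and 195 CPM in ∆Foxp3 and 81.5 and 88.8 CPM in WT, of which Cst3 made 159 and 166 against 73.5 and 74.8 CPM, and 4 of 7 rose. Fits without cells holding any listed marker of other cells were run, and their counts of calls are given at the end. The part of these cells in single V3 changes is not separated here.

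Restricted to cells with at most 2 activation-marker UMIs, the V3 comparison called fewer genes. Here 348 genes rose and 418 fell of 9491, 8.07% (3.67% and 4.4%). Ccr7 was at 381 and 379 CPM in WT and at 513 and 654 CPM in ∆Foxp3, with a log2 fold change of 0.34 ± 0.10 that passed the threshold (edgeR adjusted p = 0.019), so its direction turned. Tcf7 was 0.12 ± 0.12 (edgeR adjusted p = 0.669). Lef1 still fell, from 646 and 650 to 482 and 426 CPM, and Dapl1 from 458 and 431 to 167 and 134 CPM (-1.79 ± 0.15). Of the 27 naive genes 6 rose and 9 fell (median -0.18, beside -0.03 for all genes). Pik3ip1 rose from 121 and 117 to 464 and 478 CPM and Klhdc1, a kelch-domain substrate receptor, by 1.23 ± 0.17, where both fell in the sum over all cells. The IL-7 receptor gene Il7r, a survival receptor of naive T cells, rose from 430 and 386 to 1067 and 892 CPM.

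In those V3 cells the interferon gamma-induced list rose in 19 of 21 cases, with 0 lower and a median of 1.85. Gbp2 rose from 24.2 and 30.2 to 126 and 131 CPM (2.03 ± 0.22), Igtp from 61.1 and 62.6 to 290 and 366 CPM (2.13 ± 0.16), and Iigp1 from 12.6 and 12.8 to 174 and 220 CPM (3.68 ± 0.23). Irf1 rose by 1.19 ± 0.20. Of 41 type I genes 7 rose and 2 fell, at a median of 0.11 (0.33 with the genes at 0 UMIs in a group set at their bound), and Ifit3 at 35.9 and 18.7 CPM against 9.96 and 10.6 did not pass (edgeR adjusted p = 0.135). MHC class I genes rose in 10 of 22 cases. Bcl2 rose by 1.07 ± 0.15 and Socs1 by 1.30 ± 0.20. Ribosomal protein genes still fell in 33 of 35 cases (median -0.38), and mitochondrially encoded ones in 8 of 12.

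Among V3 cells the same division was seen cell by cell. At 1500 UMIs, ∆Foxp3 cells with 0 activation-marker UMIs held a mean of 3.22 and 3.65 UMIs of the interferon gamma-induced list, against 0.936 and 1.03 in such WT cells. ∆Foxp3 cells with 3 or more held 1.599 and 1.451. In V2 the 3 kinds of ∆Foxp3 cell were closer, at 5.02 and 5.39 UMIs in cells with 0, and 4.69 and 3.83 in cells with 3 or more activation-marker UMIs, against 1.003 and 0.961 in WT cells with 0. Cells of 1 sample are not replicates, and these means are given without a test.

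The leading genes of the V3 cells with few activation-marker UMIs, were chosen after these values were seen. Trnp1, a nuclear protein tied to proliferation, had 93 and 69 UMIs in ∆Foxp3 and 0 in both WT samples. The chemokine receptor Cxcr4 rose from 4.32 and 3.77 to 69.2 and 82.2 CPM (3.90 ± 0.38), and the orphan receptor Gpr83 from 6.31 and 7.55 to 69.2 and 131 CPM. Ctse and Cd55 again led the falls: Ctse was at 153 and 131 CPM in WT and 28.2 and 18.7 CPM in ∆Foxp3, and Cd55 at 81.7 and 86.0 against 12.8 and 3.73 CPM. The T cell surface glycoprotein Thy1 fell from 323 and 331 to 53.9 and 74.7 CPM. These ∆Foxp3 values rest on 84 and 50 cells with 390003 and 267786 UMIs.

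**Figure D3:**
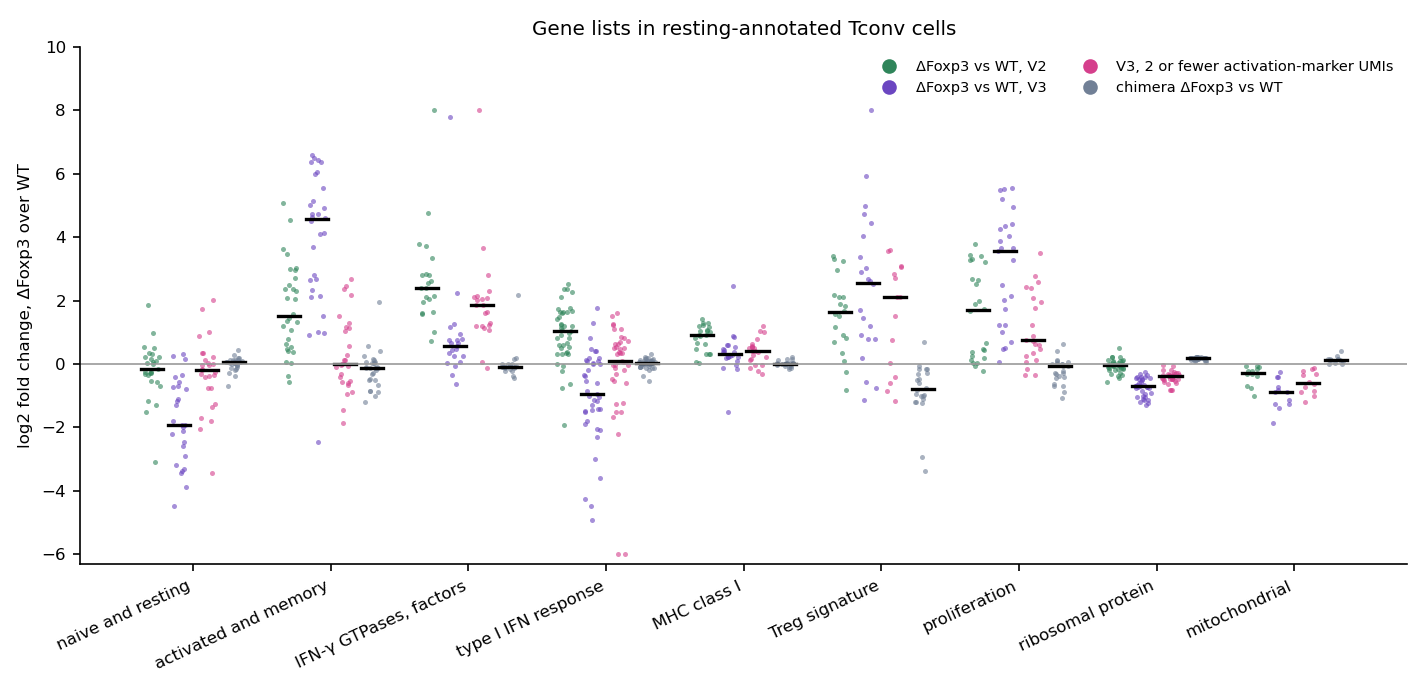
Log2 fold change of ∆Foxp3 over WT (vertical axis) for the genes tested in 9 lists, in V2, V3, V3 cells with 2 or fewer activation-marker UMIs, and chimeras; points are genes and bars are medians, and values beyond -6 and 8 are drawn at those limits. The interferon gamma list lies highest in V2 (median 2.41) and in the V3 cells with few activation markers (1.85), and at -0.10 in chimeras.

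The V2 and V3 experiments share no sample, so their calls can be set side by side. Of 9529 genes tested in both, 642 rose in both, 6.74%, which is 58.3% of the genes that rose in V2 and 33.8% of those in V3. A further 432 fell in both (4.53%), 59.8% of the V2 and 23.2% of the V3 list, and 118 went in opposite directions. With V3 alone restricted to cells with few activation-marker UMIs, and V2 over all its resting cells, 9276 genes were tested in both. Of these 337 rose in V3. There 202 rose in both (19.96% of the V2 and 59.9% of the V3 list), 180 fell in both, and 20 were opposite. With both experiments restricted, 200 rose in both, 172 fell in both, and 25 were opposite.

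By the smaller of their 2 changes, Ifng, Ccl4, Lgals3, Nkg7, S100a4, Rgs1, S100a6, Ccl5, Il2rb and Tnfrsf4 led the shared rises. Nkg7 rose by 3.63 ± 0.44 in V2 and 6.38 ± 0.22 in V3, and Rgs1, a brake on chemokine receptor signalling, by 3.31 ± 0.17 and 3.02 ± 0.34. Il2rb, the beta chain of the IL-2 receptor, rose from 9.66 and 7.46 to 44.5 and 82.8 CPM in V2 and from 4.14 and 12.7 to 148 and 147 CPM in V3. The shared falls were led by Ctse, Cd55, Dapl1, Zbtb20, Actn1, Clec2i, Dtx1, Sesn1, St8sia6 and Rgcc. Ctse changed by -3.61 in V2 and -4.07 ± 0.16 in V3, and Cd55 by -3.09 and -3.32 ± 0.16. Clec2i, a C-type lectin ligand, fell from 67.6 and 64.1 to 26.3 and 29.1 CPM in V2 and from 46.8 and 44.4 to 17.5 and 13.6 CPM in V3. Dtx1, a Notch pathway ubiquitin ligase, fell by 1.23 ± 0.15 and 1.52 ± 0.15 on the log2 scale.

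**Figure D4:**
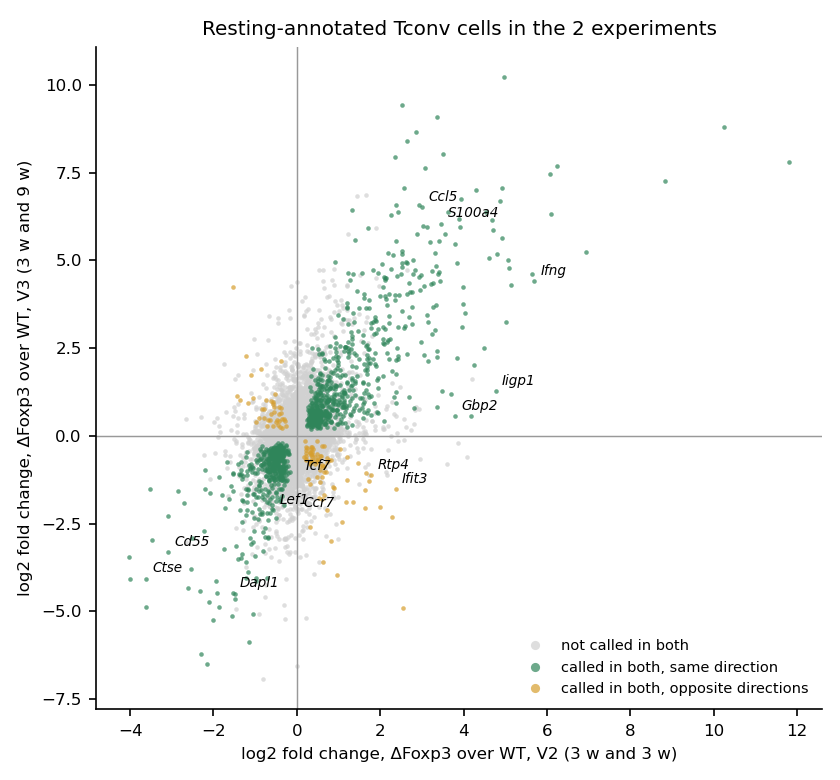
Log2 fold change of ∆Foxp3 over WT in V2 (horizontal axis) and V3 (vertical axis) for genes tested in both; green points are called in both in the same direction, orange in opposite directions, and grey are the others. Ctse and Cd55 lie at the lower left (-3.61 and -4.07, -3.09 and -3.32), and Ifit3 and Rtp4 at the lower right.

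Treg signature genes, the markers of the other T cell class the sort could hold, rose in V2 resting cells and in V3 resting-annotated cells: 13 of 20 with 0 lower in V2 (median 1.64) and 17 of 22 with 1 lower in V3 (median 2.57). Their members that moved include Tnfrsf4 (OX40), from 19.5 and 14.8 to 100 and 187 CPM in V2 and from 24.5 and 38.7 to 252 and 212 CPM in V3, Rgs1 and Tnfrsf9 (4-1BB), which are also induced by activation. Tnfrsf18 rose by 0.92 ± 0.11 and 1.44 ± 0.12. The rise moved with the GFP share given above, and its part in the result was not tested. In V3, Tnfrsf9 turned to a log2 fold change of -0.18 without the first WT sample, in which it was at 5.41 CPM against 32.4 CPM in the second. In V3 cells with few activation markers 8 of 15 rose and 0 fell.

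In the chimeras, where both genotypes shared a host, fewer genes passed the test. Of 10007 genes 74 rose and 29 fell, 1.03% (0.739% and 0.29%), and with the mouse as a block 150 rose and 68 fell. Over cells with at most 2 activation-marker UMIs, 148 genes passed, 1.56% (1.12% higher and 0.443% lower). Ccr7 was at 366, 337 and 355 CPM in ∆Foxp3 and at 370, 358 and 353 CPM in WT (0.06 ± 0.08), Lef1 was 0.07 ± 0.07, and Tcf7 was 0.08 ± 0.08, all with overlapping samples. Of the interferon gamma-induced, type I interferon, Th1, MHC class I and proliferation lists 0 genes passed in either direction, with medians of -0.10 for the first and 0.04 for the second. Gbp2 was 0.02 ± 0.11, with overlapping samples. Igtp was -0.11 ± 0.09 and did not pass, although its ∆Foxp3 samples, at 56.8, 64.6 and 71.2 CPM, all lay below the WT samples at 71.55, 76.5 and 71.9 CPM.

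Ctse was the gene that fell most among those of at least 20 CPM in the chimeras. It was at 141, 156 and 163 CPM in WT and at 15.8, 20.3 and 15 CPM in ∆Foxp3 cells of the same hosts (-3.13 ± 0.10, edgeR adjusted p = 1.1e-17). Every ∆Foxp3 sample of the series thus held 9.32 to 20.3 CPM and every WT sample, sorted Tconv included, 132 to 171 CPM, with no overlap. Thinned to 1500 UMIs, 1.78% to 2.397% of chimera ∆Foxp3 resting cells had a Ctse UMI, against 19.7% to 22.7% in chimera WT. In activated cells 3.07% to 4.95% of chimera ∆Foxp3 cells had one, against 23.5% to 27.5% in WT. In Treg-annotated cells the shares were 9.80%, 15.9% and 4.26% in ∆Foxp3 (44 to 51 cells a sample) and 16.4%, 19.1% and 22.97% in WT.

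Crip1, a LIM-domain protein, was low in chimera WT cells. It was at 215, 241 and 166 CPM in chimera WT and at 862, 651 and 747 CPM in chimera ∆Foxp3 (1.94 ± 0.10), while intact WT stood at 729 and 686 CPM and V2 showed 0.04 ± 0.08. Ttc13, a tetratricopeptide protein, rose in all 3 ∆Foxp3 comparisons: from 25.8, 33.3 and 31.0 to 74.8, 71.3 and 86.8 CPM in chimeras (1.44 ± 0.10), by 0.76 ± 0.09 in V2 and by 0.62 ± 0.15 in V3. Dapl1 went the other way from the intact mice, from 343, 338 and 364 to 454, 491 and 404 CPM (0.46 ± 0.08, edgeR adjusted p = 0.004). Cd55 fell from 80.8, 84.8 and 82.3 to 48.6, 51.7 and 45.8 CPM (-0.69 ± 0.08).

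Ribosomal, Treg signature and single genes also passed in the chimeras. Of 35 ribosomal protein genes 22 rose and 0 fell at a median of 0.18, and 3 of 12 mitochondrially encoded genes rose. The transcription factor Sox4, of recent thymic emigrants, fell from 28.2, 36.6 and 40.0 to 16.2, 15.1 and 16.8 CPM (-1.04 ± 0.13). Of 22 Treg signature genes 0 rose and 6 fell (Gpr83, Nt5e, Ikzf2, Tnfrsf9, Tnfrsf4 and Lrrc32), Tnfrsf4 from 42.3, 28.3 and 23.7 to 13.2, 16.3 and 9.54 CPM (-1.20 ± 0.18). Gt(ROSA)26Sor, transcribed from the locus that carries the YFP reporter in ∆Foxp3 mice, was at 20.5, 19.6 and 20.8 CPM against 39.2, 37.2 and 39.5 CPM, and it fell also in V2 (-1.05 ± 0.11) and V3 (-5.08 ± 0.28). The chimera ∆Foxp3 samples 1 and 3 and WT sample 2 ran in one droplet channel and the others in a second. In each mouse the 2 genotypes thus ran in different channels. Of the 102 called genes compared, 101 had the same direction in both channels. These genes were called over the same samples, so this agreement is largely built in and is no separate check. Leaving out 1 sample lowered the number of called genes to between 29, without WT sample 1, and 62, without WT sample 2.

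**Figure D5:**
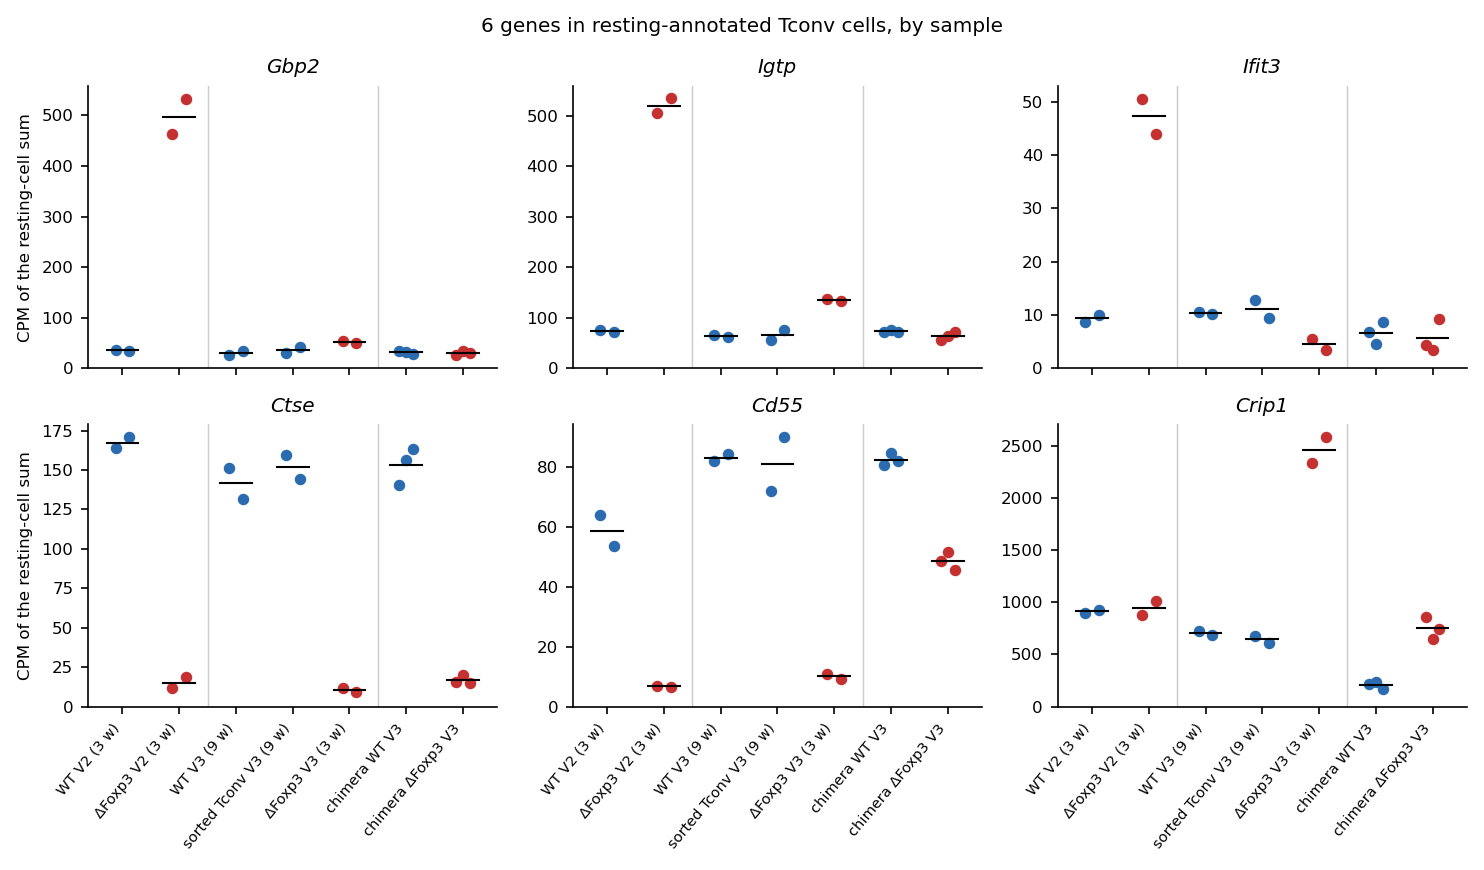
CPM of Gbp2, Igtp, Ifit3, Ctse, Cd55 and Crip1 in the resting-cell sum of each sample (vertical axes); points are samples, bars are group means, and WT is blue and ∆Foxp3 red. Gbp2, Igtp and Ifit3 are high in the 2 V2 ∆Foxp3 samples, Ctse is at 9.32 to 20.3 CPM in every ∆Foxp3 sample, and Crip1 is low in the 3 chimera WT samples.

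The intact and the chimera contrast were tested against each other in V3, each with its own controls. The log2 fold change was more positive in intact mice for 1719 genes and more negative for 1545, 32.6% (17.2% and 15.4%). Over cells with few activation markers the number was 754, and without the first V3 WT sample 2067. Dapl1 differed by -4.94 ± 0.17 on the log2 scale, S100a4 by 6.57 ± 0.25 and Pdlim4, a PDZ and LIM protein, by -4.18 ± 0.22. These values are over all resting-annotated cells. Over cells with few activation markers that of S100a4, itself one of those markers, reversed. Age and host also differ between these contrasts.

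WT resting cells from chimeras were compared with those of intact 9-week-old mice, with 9 genes higher and 19 lower, 0.28% (0.0899% and 0.19%). Crip1 fell by 1.84 ± 0.11 on the log2 scale. The MHC class Ib genes H2-Q6 and H2-Q7 were higher, H2-Q7 at 577, 616 and 526 CPM against 305 and 275 CPM (0.89 ± 0.08), though reads of these near-identical genes can be split between them. The mitochondrially encoded mt-Nd2 fell from 4499 and 4415 to 2850, 2938 and 2878 CPM (-0.71 ± 0.05). The number called ranged from 20 to 85 over the settings given at the end.

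Cells sorted for the absence of GFP were compared with unsorted cells. Between sorted Tconv and unsorted WT samples 0 of 10007 genes passed with edgeR (0%) or with DESeq2, and 394 had an unadjusted p under 0.05 (3.94%). Ccr7 was at 358 and 367 CPM in sorted cells, and Ctse at 160 and 144 CPM. These samples are small, with 95 and 274 cells.

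In V2 the ∆Foxp3 effect differed between resting and activated cells for 182 of 8812 genes, 2.07% (133 with the more positive change in resting cells, 1.51%, and 49 with the more negative, 0.556%). The interferon gamma-induced list had 13 of 21 genes with a more positive change in resting cells and 0 with a more negative (median difference 1.33, beside 0.03 for all genes), and the type I list 21 of 39 and 0. Iigp1 differed by 2.88 ± 0.24 and Plac8, a cysteine-rich protein of activated lymphocytes, by 4.43 ± 0.30. Klrd1, an NK receptor chain, went from 18.3 and 16.1 to 2.51 and 2.04 CPM in resting cells, a difference from activated cells of -2.82 ± 0.56. The count was 31 to 44 when either WT sample was left out and 374 with the sample as a block.

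In V3 the class difference was 384 of 10006 genes, 3.84% (268 more positive in resting-annotated cells, 2.68%, and 116 more negative, 1.16%), and it was led by activation genes. Of 30 activated and memory genes 25 had the more positive change in resting-annotated cells and 0 the more negative, Ccl5 by 5.78 ± 0.34 and S100a6 by 5.37 ± 0.33. Lef1 differed by -1.86 ± 0.28 and Satb1 by -2.09 ± 0.26, both more negative in resting-annotated cells, as were 30 of 35 ribosomal protein genes. The count was 209 and 157 without the first or the second WT sample, and 599 with the sample as a block.

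The number of genes detected at equal depth also differed. Thinned to 1500 UMIs, the median cell had 702 and 704 genes in V2 ∆Foxp3 against 688 and 684 in WT, and 772 and 782 in V3 resting-annotated ∆Foxp3 cells against 645.5 and 644.5 in WT. Activated V3 WT cells had 774.5 and 794. In chimeras the order turned, with 648, 632 and 649 genes in ∆Foxp3 and 685, 668 and 666 in WT. None of the 3 pairs of groups overlapped, and the exact two-sided permutation p was 0.33 in V2 and in V3, the smallest that 2 against 2 samples allow. In the chimeras, with exchange within the 3 mice, the exact two-sided permutation p was 0.25, the smallest possible, and ∆Foxp3 was lower in 3 of 3 mice. In each mouse the 2 genotypes ran in different droplet channels, so each difference within a mouse is also one between channels. Set side by side within the first channel, WT had 668 genes against 648 and 649 in ∆Foxp3. In the second channel, WT had 685 and 666 against 632 in ∆Foxp3. The median was thus lower in ∆Foxp3 within both channels, and the part of the channel was not tested.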

How the data were processed

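UMI counts per gene and cell, with the authors' cluster annotation, were analysed as deposited. Per the submitters' processing notes, Cell Ranger 3.0.2 and the mm10 genome were used. The counts are whole numbers and not normalized, and the deposited Foxp3 value is the authors' sum of Foxp3 with GFP (WT) or with Cre (∆Foxp3), so it is not named. The authors deposited the percent of mitochondrially encoded UMIs per cell and, for V2, the fraction of reads in cells, per the file headers. Of the metadata columns, 45 were not used. The authors' deposited Scrublet doublet score, per the file headers, reached 0.293 in resting cells, and no further doublet filter was applied.

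Counts of resting cells were summed per sample and tested with edgeR 4.0.16 (R 4.3.3; quasi-likelihood F test after TMM scaling and filterByExpr at min.count 10, with a threshold of 0.05 on Benjamini-Hochberg adjusted p). V2 had its own fit, and 12 V3 samples shared another. SE is the log2 fold change divided by the square root of F. CPM are relative to the raw sum. DESeq2 1.42.0, other filters, other cell sets and left-out samples were alternatives. In simulated counts the fit called 70.4% of 2-fold and 93% of 4-fold changes in V2 (9693 genes), and 70.3% and 90.3% in V3 (9585 genes). The simulation changed 200 genes, far fewer than were called in the data, so these shares need not hold there. Between replicates chi-square per degree of freedom was 1.24 to 5.66, more than counting noise, which does not show that they came from separate animals.

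The named genes are the 4 markers, the 10 highest and 10 lowest called genes of V2 and V3 (5 and 5 elsewhere) with at least 20 CPM and no overlap between groups, the 10 and 10 shared ones, for each list the 4 members or fewer of lowest p in V2, and 15 identity genes of at least 50 CPM. Members and lists were chosen with earlier results of these data known. Of 509 list members 496 matched by symbol and 10 by an older symbol. Chimera samples with one number come from the same mouse per the labels, and their deviations correlated at 0.0871, 0.020 and 0.0199. Cells were thinned to 1500 UMIs for shares of cells. The 95% counting intervals and the floor of 3 UMIs cover counting error only.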

Additional observations from a re-analysis of the deposited data

Results flagged for a closer look

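The ∆Foxp3 effect differed between intact mice and chimeras in V3 for 3264 genes, tested as the difference of the contrasts. Dapl1 differed by -4.94, Gm20696 by -4.26, Pdlim4 by -4.18, St8sia6 by -4.17 and Gt(ROSA)26Sor by -4.26 on the log2 scale. In the other direction Ccl1 differed by 9.66, Ccr2 by 7.29, Gzmb by 6.84, Lgals3 by 6.66 and S100a4 by 6.57. These values are over all resting-annotated cells, and that of S100a4 reversed over cells with few activation markers.

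Between resting and activated cells the effect differed for 182 genes in V2. Plac8 differed by 4.43, Gzmk by 4.27, 1500009L16Rik by 3.16, Iigp1 by 2.88 and H2-DMa by 2.86, all more positive in resting cells. Klrd1 differed by -2.82, Cdc42ep3 by -2.08, Sgk1 by -1.73, Stmn1 by -1.67 and Bcl7c by -1.55.

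In V3 the effect differed between resting-annotated and activated cells for 384 genes. Of the ∆Foxp3 resting-annotated cells, 72.8% and 79.5% held 3 or more activation-marker UMIs after thinning. Ccl5 and S100a6 are among those markers. Ttc39c differed by 6.05, Myo1f by 5.91, Ccl5 by 5.78, Runx2 by 5.46 and S100a6 by 5.37. Filip1l differed by -2.21, Satb1 by -2.09, Lef1 by -1.86, Fam46a by -1.47 and Bcl2 by -1.46.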

How the results depend on the processing

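Of the values of named genes under the alternatives, 3756 kept their direction and side of the threshold, 231 lost the threshold and 25 reversed. For V3, cells with at most 2 activation-marker UMIs reversed Ccr7 (0.34), Tcf7 (0.12), S100a4 (-0.54), S100a6 (-0.41), Satb1 (0.048), Il4ra (0.41), Rtp4 (0.62), Ifit3 (1.25), Tnfrsf9 (-0.60), Gpi1 (-0.000464), Ldha (-0.023), Cox4i1 (-0.13), Cox6c (-0.27), Bcl2a1b (-0.061), Xbp1 (-0.71), Klhdc1 (1.23) and Pik3ip1 (1.72). Intact minus chimera, it reversed Ccr7 (0.28), Tcf7 (0.043), S100a4 (-0.40), Satb1 (0.084), Klhdc1 (1.265) and Pik3ip1 (1.68). S100a4 and S100a6 are among the activation markers whose UMIs set this limit. The choice of cells thus caps their values, and their reversals are no separate check. Tnfrsf9 ranged from -0.18 without the first V3 WT sample to 2.381 without the second, and Cox4i1 -0.13 without cells holding any marker of other cells. That wide filter, which removes 71.6% to 92.5% of the cells, left 646 called genes in V2, 829 in V3, 50 in chimeras, 68 for chimera WT, 1 for sorted cells, 625 for intact minus chimera and 18 for V2 resting minus activated. In V3 the last gave no value. A narrower list of such markers, found in 3.69% to 39.0% of the resting cells of a sample, was chosen after the data were seen. The counts of calls without those cells are not given here. With no filter on low counts the calls were 188 (chimera), 76 (chimera WT), 2 (sorted), 455 and 657 (resting minus activated, V2 and V3). DESeq2 called 910 in V2 and 48 for chimera WT. Only the groups compared gave 160 (chimera) and 48 (chimera WT). Few activation markers gave 766 (V3), 59 (chimera WT) and 754 (intact minus chimera), and were not run between classes. Leaving out 1 sample gave 794 to 2458 calls in V2, 2520 to 4018 in V3, 29 to 62 in chimeras, 2067 to 3306 for intact minus chimera, and 31 to 225 and 157 to 463 for the classes in V2 and V3. The lowest counts came without a WT sample in each case (in the V2 classes the second, in V3 the first, in the V3 classes the second). The cause was not tested.

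The replicate block gave 218 calls in chimeras, 85 for chimera WT, 1 for sorted cells and 646 for V3 classes. A block by sample gave 374 and 599 for the classes in V2 and V3. V2 letters (r = 0.0662) and V3 numbers (r = 0.0609) pair samples by name or channel only. With chimera samples in place of intact WT, 9 of the 15 identity genes were among the 15 chosen by the same rule. At 1000 UMIs the difference in genes per cell was 13 in V2 and 97.75 in V3, and that in S100a6 shares 7.193 and 45.9 points (16.82 and 62.38 unthinned). Depth limits the sorted samples, the V3 ∆Foxp3 cells with few activation markers and genes near 0 UMIs.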
